A study of Homo sapiens with 12 samples.

Results

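Homologous recombination and Fanconi anemia genes were taken as a list of 36 named genes, found by symbol through their Ensembl identifiers, out of 16676 genes in the deposited table. All 36 were present, and all 36 reached 1 TPM (transcripts per 1000000, a level scaled by gene length and library total) in at least 2 libraries. The cells were HCT116, an established human colon carcinoma line of epithelial origin. The libraries, named a and b within each of 6 groups of 2, came from SPARCLE knockout (KO) cells, SPARCLE over-expressing (OE) cells and WT cells, each with 1 µM doxorubicin for 48 h or in regular medium (control). SPARCLE is a long noncoding RNA, and doxorubicin is an intercalating drug that traps topoisomerase on broken DNA. All groups shared the HCT116 background. Whether the KO and the OE cells were each 1 clone, and what drove the over-expression, is not given in the sources used here.

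Homologous recombination mends a broken chromosome by copying the intact sister. Nucleases trim the ends, mediator proteins led by BRCA2 load the recombinase on the exposed strand, and motor proteins and accessory factors help it invade the intact copy, after which helicases and nucleases take the joined molecules apart. The Fanconi anemia pathway deals with crosslinked DNA: a core complex, with the E2 enzyme UBE2T, attaches ubiquitin to the FANCD2 and FANCI pair, which then brings in nucleases and recombination proteins. Many genes of both pathways are known to be transcribed mainly in cells that are copying their DNA or preparing to divide.

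The libraries held 12595596 to 30679554 reads recovered from the deposited values, and the lowest read number behind any value of the 36 genes was 10, for MND1 in KO cells with doxorubicin. SPARCLE had 430 and 487 reads in OE cells with doxorubicin and 384 and 622 in OE control cells. The KO cells gave 4 and 1 reads with doxorubicin and 0 and 0 in control medium, against 0 and 3 with doxorubicin and 0 and 0 in control medium for WT cells, so the knockout could not be checked against WT at this depth. CDKN1A, the p53 target that halts the cell cycle, was 2.98 ± 0.2 log2 units higher with doxorubicin (limma adjusted p = 4e-07). All 8 epithelial markers were in the table, with a summed level of 2820 to 3430 TPM in doxorubicin libraries and 1110 to 2370 TPM in control libraries. Of the leukocyte markers 2 of 8 were in the table (CD68 and ITGAM, together 4.22 to 10.0 TPM with doxorubicin and 13.3 to 44.2 TPM in control), and of the fibroblast and endothelial markers 2 of 9 (COL1A1 and VWF, together 1.26 to 6.5 TPM with doxorubicin and 2.5 to 4.57 TPM in control). The part of these markers in the results was not tested. Small RNA genes took up to 59.8% of the TPM of a library (OE doxorubicin b). The median gene of a library lay 0.18 to 0.22 log2 units above the average library in the 3 doxorubicin libraries named a, and at -0.05 to -0.26 in the 3 named b.

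Doxorubicin split the 36 genes. On the scale of log2(TPM + 1), averaged over KO, OE and WT cells, 18 genes fell, 9 rose and 9 did not pass an adjusted p of 0.05 in limma's test over 15256 genes. Over all genes tested, 58.0% were called, 25.9% lower and 32.2% higher, so falls were more frequent among the 36 than among all genes and rises less so, without a test of that difference. Among the 12 of the 36 with a mean of at least 5 TPM, only FANCI and UBE2T fell. At that level PALB2, RAD51C, RAD52, FANCE, MUS81 and RAD50 rose, and the remaining falls of the 36 were in genes with a lower mean. Of all 9210 genes with such a mean, 2445 were lower and 2989 higher when tested by themselves. The median difference was -0.36 for the 36 genes and 0.09 for all genes. Calls of at least 1 log2 unit were seen in 12 genes that fell (7.01% of all genes did so) and 5 that rose (10.6% of all genes). Doxorubicin libraries lay wholly below the control libraries for 12 genes (16.3% of all genes did so), and wholly above them for 5, which were PALB2, RAD51C, RAD52, FANCF and RMI2 (15.7% of all genes). In bulk RNA, fewer cells in a cycling state and less RNA per cell cannot be told apart. The labels call a and b biological replicates and say no more, so the p-values measure the spread between these libraries.

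The response had the same sign in KO, OE and WT cells for 33 of the 36 genes. Taken alone, the KO cells had 15 genes lower and 3 higher with doxorubicin (14.3% and 9.9% of all genes, 24.2% called in all), the OE cells 13 lower and 6 higher (10.6% and 12.4%, 23.0% in all), and the WT cells 12 lower and 6 higher (12.6% and 19.6%, 32.2% in all). In each kind of cell, 12 genes passed as lower: BARD1, BLM, BRIP1, EME1, FANCA, FANCB, FANCD2, FANCG, FANCI, MND1, RAD54B and UBE2T (8.31% of all genes did so). FANCF, RAD52 and RMI2 passed as higher in each (8.3% of all genes). Many of these calls were lost when 1 library was left out, which leaves 1 library in its group. The cause of the losses was not tested. In each fit counted next, fewer genes were called over all genes as well. The KO counts became 9 lower and 0 higher without KO control b, 11 and 0 without KO doxorubicin a, and 12 and 5 without KO doxorubicin b. FANCF, RAD52 and RMI2 lost their KO calls without KO control b and again without KO doxorubicin a. The OE counts became 8 lower and 2 higher without OE control a, 4 and 1 without OE control b, and 12 and 1 without OE doxorubicin a. The WT counts became 8 lower and 1 higher without WT control a, 11 and 1 without WT doxorubicin a, and 8 and 2 without WT doxorubicin b. BARD1, BLM, EME1 and MND1 kept their calls in each kind of cell whichever library was left out. The count of 27 over all kinds stayed between 25 and 27.

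**Figure D1:**
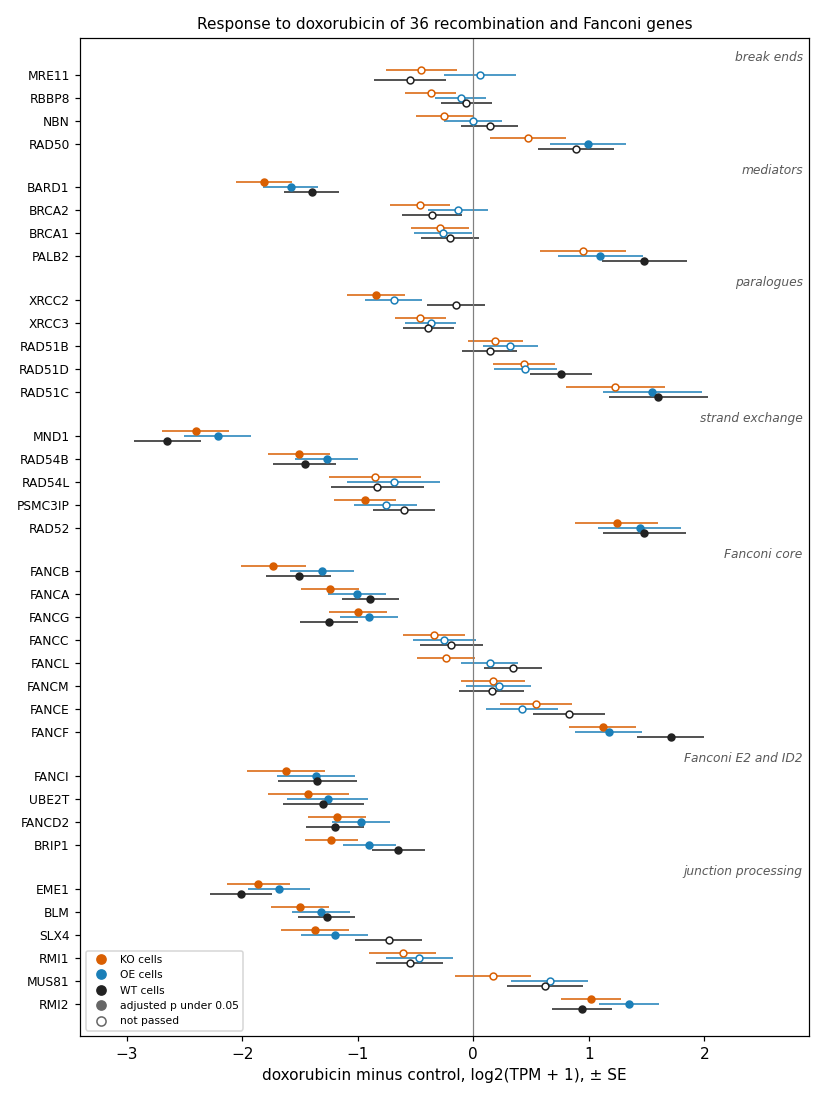
Difference between doxorubicin and control on the log2(TPM + 1) scale (x axis) for each of the 36 genes (y axis, grouped by role), with the limma standard error, in KO (orange), OE (blue) and WT (black) cells; filled points passed an adjusted p of 0.05. MND1 lies furthest left, at -2.65 in WT cells, and FANCF furthest right, at 1.71 in WT cells, and most genes keep their side of 0 in all 3 kinds of cells.

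The promoters of 6 of these genes are shown because letters known from cell-cycle promoters were counted in them, beside whether the gene fell or rose. The sequences run from 250 bases before to 50 bases after an annotated start of the gene and come from RefSeq on GRCh38.p14. A window was at hand for 32 of the 36 genes, and RAD54B, FANCI, RMI2 and NBN had none. The letters searched on both strands were TTTGGCGC, TTTCGCGC, TTTCCCGC and GGCGGGAA, forms of the site known for E2F factors, which switch on genes of DNA replication. TTTCCCGC read on the other strand overlaps GGCGGGAA, so neighbouring matches can share letters. Capitals mark the matches. MND1 (chr4:153344399-153344698, + strand), FANCD2 (chr3:10026187-10026486, + strand), BLM (chr15:90717096-90717395, + strand) and XRCC2 (chr7:152676092-152676391, - strand) fell with doxorubicin and hold a match. RAD51C (chr17:58692323-58692622, + strand) and PALB2 (chr16:23641261-23641560, - strand) rose and hold none. XRCC2 fell on the average over the kinds of cells and passed alone only in KO cells. The 6 shown do not stand for all members. EME1, BARD1 and FANCB fell further than BLM and hold no match, and RAD52 rose and holds one.
MND1: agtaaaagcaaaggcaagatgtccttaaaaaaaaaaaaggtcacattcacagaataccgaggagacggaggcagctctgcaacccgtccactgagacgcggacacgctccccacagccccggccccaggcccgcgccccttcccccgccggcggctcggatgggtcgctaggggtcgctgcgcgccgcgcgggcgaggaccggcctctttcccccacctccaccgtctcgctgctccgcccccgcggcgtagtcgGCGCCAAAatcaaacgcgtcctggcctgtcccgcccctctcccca
FANCD2: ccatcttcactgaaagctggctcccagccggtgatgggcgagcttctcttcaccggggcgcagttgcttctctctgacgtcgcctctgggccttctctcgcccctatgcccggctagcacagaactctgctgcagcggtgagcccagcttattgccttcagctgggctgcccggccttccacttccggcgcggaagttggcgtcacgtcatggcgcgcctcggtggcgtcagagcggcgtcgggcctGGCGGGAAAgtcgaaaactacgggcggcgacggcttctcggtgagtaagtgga
BLM: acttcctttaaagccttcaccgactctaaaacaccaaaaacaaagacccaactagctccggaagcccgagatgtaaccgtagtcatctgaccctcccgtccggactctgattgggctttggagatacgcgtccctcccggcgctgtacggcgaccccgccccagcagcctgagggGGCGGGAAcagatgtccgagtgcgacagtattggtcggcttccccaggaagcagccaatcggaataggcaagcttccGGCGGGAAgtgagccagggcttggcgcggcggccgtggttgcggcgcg
XRCC2: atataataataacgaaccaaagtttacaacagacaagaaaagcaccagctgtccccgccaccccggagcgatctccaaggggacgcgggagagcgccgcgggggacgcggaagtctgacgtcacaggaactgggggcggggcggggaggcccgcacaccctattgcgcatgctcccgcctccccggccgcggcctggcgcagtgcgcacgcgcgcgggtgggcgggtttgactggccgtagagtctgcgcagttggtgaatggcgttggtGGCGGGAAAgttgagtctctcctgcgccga
RAD51C: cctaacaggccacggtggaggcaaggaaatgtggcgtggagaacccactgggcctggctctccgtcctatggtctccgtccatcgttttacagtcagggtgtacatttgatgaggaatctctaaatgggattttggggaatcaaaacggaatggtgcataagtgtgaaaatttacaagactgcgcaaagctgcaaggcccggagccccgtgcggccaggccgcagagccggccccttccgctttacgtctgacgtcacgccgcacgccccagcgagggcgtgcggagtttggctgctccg
PALB2: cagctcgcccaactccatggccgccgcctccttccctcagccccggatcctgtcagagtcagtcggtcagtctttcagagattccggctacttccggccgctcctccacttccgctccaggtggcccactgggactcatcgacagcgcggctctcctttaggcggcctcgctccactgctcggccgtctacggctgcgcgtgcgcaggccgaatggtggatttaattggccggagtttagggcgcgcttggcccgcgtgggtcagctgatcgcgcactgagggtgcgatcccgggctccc

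Such letters were found in 9 of the 16 genes that fell and have a window (56.2%): XRCC2, XRCC3, RAD54L, BRIP1, FANCD2, BLM, RMI1, MND1 and PSMC3IP. The rest of the 16, which were EME1, BARD1, FANCB, FANCA, FANCG, SLX4 and UBE2T, held none. The letters were found in 1 of the 8 that rose (RAD52, 12.5%) and in 2 of the 8 that did not pass (FANCC and FANCL). A gene with more than 1 window was counted where any of its windows held a match. RAD52, RMI1 and PSMC3IP also have a window without a match. Of all 35116 windows of this length 5.03% held a match, and of all genes with a window 6.03%. Among the genes tested in the RNA data the share, per gene, was 12.1% of those that fell, 8.69% of those that rose and 10.1% of the rest. Letters of the cell-cycle homology region, TTTGAA or TTCGAA on either strand, stood in 2 of the 16 genes that fell, 0 of the 8 that rose and 1 of the 8 that did not pass, against 16.4% of all windows and, per gene, 18.2% of the tested genes that fell, 12.9% of those that rose and 14.5% of the rest. These are descriptions of letters within the windows.

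Of the 4 genes that act first at a broken end, 1 rose and 3 did not pass, against 32.2% higher and 25.9% lower over all genes. Counts by role, here and below, were not tested. RBBP8, which starts the trimming of the ends, had 8.44, 10.1 and 16.2 TPM as the lowest, median and highest doxorubicin library, against 9.49, 13.3 and 19.3 TPM in control libraries, and did not pass (-0.18 ± 0.13, limma adjusted p = 0.249). MRE11, the nuclease of the complex that senses breaks, had 3.07, 4.34 and 6.86 TPM with doxorubicin, against 4.42, 6.02 and 7.9 TPM in control (-0.31 ± 0.18, adjusted p = 0.157). Its partner NBN, which links that complex to the checkpoint kinase, had 10.2, 12.8 and 14.5 TPM against 10.7, 11.9 and 19.9 TPM (-0.04 ± 0.14, adjusted p = 0.835). The ranges of all 3 genes overlapped between the media. RAD50, the third subunit and the one that tethers DNA ends, rose, with 11.9, 17.5 and 18.8 TPM in doxorubicin libraries and 6.01, 8.64 and 14.1 TPM in control libraries (0.78 ± 0.19, adjusted p = 0.00352). Only KO control a and WT control b reached the doxorubicin range of RAD50. Alone, RAD50 passed only in OE cells (adjusted p = 0.0463). A further annotated gene on the same strand covers 79.7% of the exon bases of RAD50. That gene is not one of those analysed here.

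Among the mediators, BARD1 fell and PALB2 rose, while BRCA1 and BRCA2 did not pass. BARD1, the partner that BRCA1 needs for its ubiquitin ligase activity (chr2:214725646-214809711, - strand, gene coordinates here and below from GENCODE v29 on GRCh38), had 1.16, 1.41 and 2.17 TPM as lowest, median and highest with doxorubicin, against 5.53, 6.64 and 8.33 TPM in control, with no overlap. Its difference was -1.6 ± 0.14 (limma adjusted p = 2.1e-06), and its geometric mean level with doxorubicin was 0.228 times that in control. PALB2, which bridges BRCA1 and BRCA2, had 7.46, 11.5 and 14.7 TPM against 2.39, 4.53 and 6.16 TPM, again without overlap (1.18 ± 0.21, adjusted p = 0.000511). The lowest doxorubicin libraries of PALB2 were KO b with 7.74 TPM and OE b with 7.46 TPM. PALB2 did not pass in KO cells alone (adjusted p = 0.0781).

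BRCA1 itself had 1.34 and 1.12 TPM in KO, 1.03 and 0.868 TPM in OE and 2.02 and 1.24 TPM in WT libraries with doxorubicin, against 1.99 and 1.48, 1.47 and 1.2, and 1.58 and 2.49 TPM in the matching control libraries. Its ranges overlapped (-0.25 ± 0.14, limma adjusted p = 0.152). BRCA2, which loads the recombinase, had 0.735, 0.973 and 1.14 TPM as the lowest, median and highest library with doxorubicin, against 0.816, 1.43 and 2.21 TPM in control (-0.32 ± 0.15, adjusted p = 0.0917). It passed without WT control a (-0.43, adjusted p = 0.0301), and MRE11 passed without OE doxorubicin a (-0.44, adjusted p = 0.0472). When library sizes were set by the median ratio to the average library, BRCA1, BRCA2, MRE11, RBBP8 and FANCC passed as well, with differences of -0.27 to -0.4 and adjusted p of 0.00836 to 0.0383 (0.00836 for FANCC, 0.0383 for RBBP8), and the split over all members became 23 lower and 9 higher, while the share of all genes rose to 32.8% lower and 33.6% higher.

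**Figure D2:**
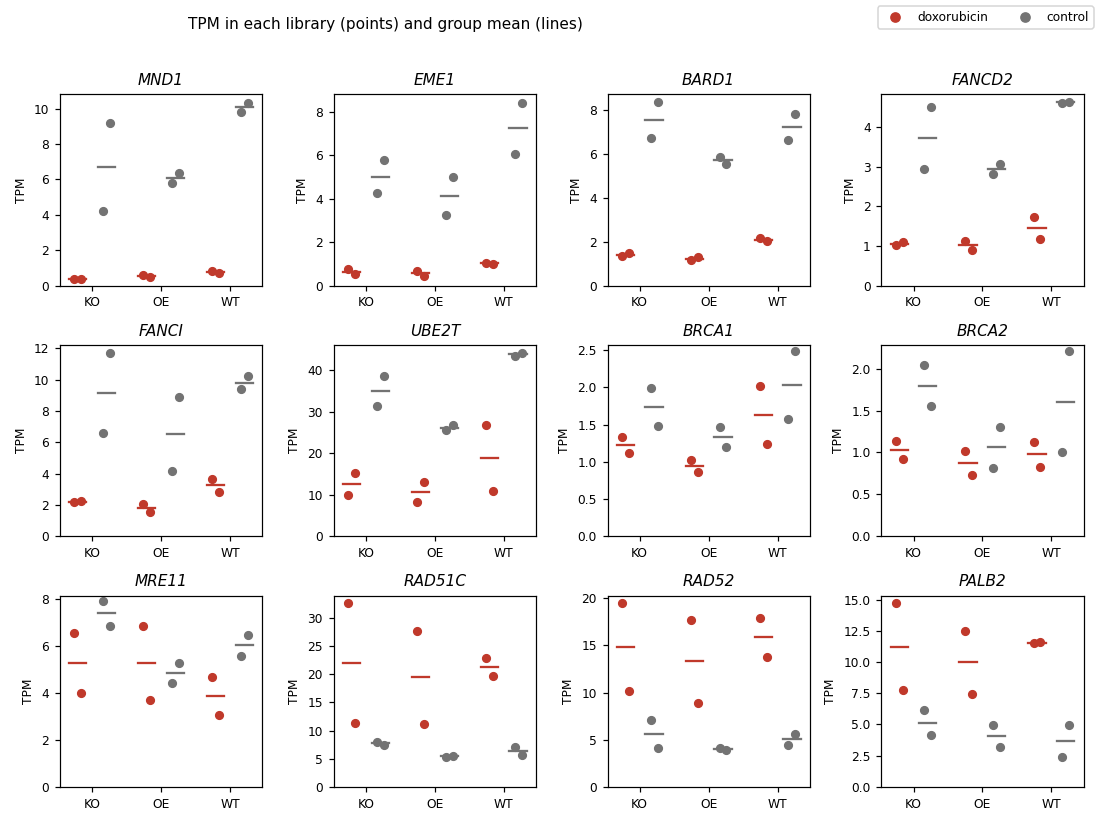
TPM (y axis, from 0) of 12 genes in every library (points, a left of b) and group mean (lines) in KO, OE and WT cells, doxorubicin in red at the left and control in grey at the right of each pair. The points of MND1, EME1, BARD1, FANCD2 and FANCI with doxorubicin lie under all control points, those of RAD51C, RAD52 and PALB2 over them, and those of BRCA1, BRCA2, MRE11 and UBE2T overlap.

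The 5 recombinase paralogues, which form small complexes that steady the recombinase filament, moved apart. RAD51C (chr17:58692573-58735611, + strand) had 32.6 and 11.4 TPM in KO, 27.7 and 11.2 TPM in OE and 22.8 and 19.7 TPM in WT libraries with doxorubicin. In control medium it had 8.01 and 7.47 TPM in KO, 5.32 and 5.54 TPM in OE and 7.1 and 5.66 TPM in WT libraries. Every doxorubicin library lay above every control library, and the b libraries of KO and OE, whose median genes lay at -0.06 and -0.26 against the average library, were the lowest of them (1.46 ± 0.25, limma adjusted p = 0.000321). The part of that library shift was not tested. Taken alone, RAD51C passed in OE and WT cells and not in KO cells (limma adjusted p = 0.0549). RAD51D, a partner of XRCC2, rose less, with 0.955, 1.61 and 2.22 TPM as lowest, median and highest against 0.461, 0.674 and 1.28 TPM (0.55 ± 0.16, adjusted p = 0.00964), and its ranges overlapped. It passed alone only in WT cells (adjusted p = 0.0496). XRCC2 (-0.56 ± 0.15, adjusted p = 0.00501) and XRCC3 (-0.41 ± 0.13, adjusted p = 0.014) fell, with means of 1.0 TPM with doxorubicin and 1.98 TPM in control for XRCC2, and 0.796 and 1.39 TPM for XRCC3. Alone, XRCC2 passed only in KO cells (adjusted p = 0.0291), with -0.15 in WT cells (adjusted p = 0.661), and XRCC3 passed in no kind of cell. XRCC3 lost its call without OE control a (adjusted p = 0.0521), and 76.7% of its exon bases lie opposite exons of KLC1. RAD51B did not pass (0.22 ± 0.14, adjusted p = 0.189). RAD51C pairs with XRCC3 in one complex and with RAD51B, RAD51D and XRCC2 in the other.

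Of the 5 genes for strand exchange, 4 fell (25.9% of all genes did so). MND1 (chr4:153344649-153415118, + strand), known from meiosis as the partner of PSMC3IP in stimulating strand invasion, fell furthest of the 36. It had 0.374 and 0.394 TPM in KO, 0.603 and 0.46 TPM in OE and 0.803 and 0.718 TPM in WT libraries with doxorubicin, against 4.24 and 9.18, 5.8 and 6.37, and 9.81 and 10.3 TPM in the matching control libraries. Its difference was -2.42 ± 0.17 (limma adjusted p = 5.12e-07), and its mean level was 0.559 TPM with doxorubicin and 7.63 TPM in control. PSMC3IP fell with it (-0.77 ± 0.16, adjusted p = 0.00107, 0.687 against 1.87 TPM), although its ranges overlapped and 29.9% of its exon bases lie opposite MLX. Alone, PSMC3IP passed only in KO cells. The motor genes RAD54L and RAD54B, whose proteins remodel the paired DNA, fell as well. RAD54B had 1.6, 2.0 and 2.61 TPM with doxorubicin against 5.12, 7.09 and 9.57 TPM in control (-1.42 ± 0.15, adjusted p = 1.16e-05), and FSBP shares 59.1% of its exon bases on the same strand. RAD54L had 0.514, 1.03 and 1.57 TPM with doxorubicin, against 0.996, 2.78 and 4.23 TPM in control, with overlap (-0.79 ± 0.23, adjusted p = 0.0105). It passed in no kind of cell alone.

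RAD52, which anneals complementary strands and backs up BRCA2 in human cells, was the strand exchange gene that rose. On chr12:912077-990053, - strand, it had 8.9, 15.8 and 19.5 TPM as lowest, median and highest with doxorubicin, against 3.87, 4.29 and 7.07 TPM in control, without overlap (1.39 ± 0.21, limma adjusted p = 0.000135). It passed in KO, OE and WT cells alike, at 1.24 ± 0.36, 1.44 ± 0.36 and 1.48 ± 0.36, and lost the call in each when one or another library was left out.

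The 8 genes of the Fanconi core and its anchor did not move as one: 3 fell, 2 rose and 3 did not pass, against 25.9% lower and 32.2% higher over all genes. FANCA and FANCG, which bind each other, fell: FANCA had 1.12, 1.38 and 1.8 TPM with doxorubicin against 3.2, 3.89 and 5.25 TPM in control (-1.05 ± 0.14, limma adjusted p = 6.42e-05), and FANCG had 1.83, 2.29 and 2.32 TPM against 4.58, 5.2 and 7.46 TPM (-1.05 ± 0.15, adjusted p = 7.18e-05). FANCB, which holds the catalytic part with FANCL, fell further, with 0.947, 1.19 and 1.69 TPM against 3.68, 5.58 and 7.73 TPM (-1.52 ± 0.16, adjusted p = 1.04e-05). FANCL, the ubiquitin ligase itself, did not pass (0.08 ± 0.14, adjusted p = 0.642, 8.74 TPM with doxorubicin and 8.27 TPM in control). None of the ranges of FANCA, FANCB and FANCG overlapped between the media.

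In the substrate-binding part of the core, FANCF and FANCE rose and FANCC did not pass. FANCF (chr11:22622890-22625841, - strand), an adaptor of the core, had 5.45 and 5.09 TPM in KO, 5.43 and 3.92 TPM in OE and 5.17 and 4.35 TPM in WT libraries with doxorubicin, against 2.74 and 1.23, 1.81 and 1.22, and 0.639 and 0.871 TPM in the matching control libraries. Every doxorubicin library was above every control library, with WT control the lowest group (1.33 ± 0.17, limma adjusted p = 3.36e-05). FANCE, which binds FANCD2, had 8.8, 12.1 and 16.7 TPM with doxorubicin against 4.74, 7.31 and 10.9 TPM (0.6 ± 0.18, adjusted p = 0.0112), with overlap, and it did not pass in any kind of cell alone. FANCC had 1.81 ± 0.352 TPM with doxorubicin and 2.38 ± 0.449 TPM in control (SD, n = 6 each, -0.26 ± 0.15, adjusted p = 0.158). FANCM, the translocase that anchors the core on DNA, did not pass (0.18 ± 0.16, adjusted p = 0.337).

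UBE2T, the FANCD2 and FANCI pair and BRIP1, grouped here as 4 genes, all fell (25.9% of all genes did so). UBE2T had 9.84 and 15.3 TPM in KO, 8.25 and 13.0 TPM in OE and 26.7 and 10.9 TPM in WT libraries with doxorubicin. In control medium, where its mean was the highest of the 36, it had 31.5 and 38.7 TPM in KO, 25.5 and 26.8 TPM in OE and 43.5 and 44.3 TPM in WT libraries. One library, WT doxorubicin a, reached the OE control range (-1.33 ± 0.2, limma adjusted p = 0.000138). FANCD2 had 1.01 and 1.11 TPM in KO, 1.12 and 0.903 TPM in OE and 1.73 and 1.18 TPM in WT libraries with doxorubicin, against 2.93 and 4.51, 2.8 and 3.07, and 4.61 and 4.63 TPM in the matching control libraries (-1.12 ± 0.14, adjusted p = 4.1e-05). FANCI, its clamp partner, had 1.57, 2.2 and 3.65 TPM as lowest, median and highest against 4.17, 9.14 and 11.7 TPM (-1.44 ± 0.19, adjusted p = 5.6e-05). Neither gene of the pair overlapped between the media. BRIP1, the helicase that binds BRCA1 and is also known as FANCJ, fell as well (-0.93 ± 0.13, adjusted p = 7.58e-05, 0.979 against 2.71 TPM).

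Of the 6 genes that process joined molecules, 4 fell and 2 rose, against 25.9% lower and 32.2% higher over all genes. EME1, the partner that the nuclease MUS81 needs (chr17:50373220-50381483, + strand), had 0.75 and 0.532 TPM in KO, 0.691 and 0.46 TPM in OE and 1.05 and 0.978 TPM in WT libraries with doxorubicin, against 4.25 and 5.75, 3.25 and 4.99, and 6.06 and 8.39 TPM in the matching control libraries (-1.85 ± 0.16, limma adjusted p = 1.71e-06). Its geometric mean level with doxorubicin was 0.137 times that in control. MUS81 passed as higher by a narrow margin (0.48 ± 0.19, adjusted p = 0.0428) and lost its call when any 1 of 9 of the 12 libraries was left out. SLX4, the scaffold that gathers these nucleases, had 0.965, 1.6 and 2.2 TPM against 3.29, 4.66 and 6.41 TPM, without overlap (-1.1 ± 0.17, adjusted p = 0.00013). It passed in KO cells, in OE cells unless OE control a, OE control b or OE doxorubicin b was left out, and not in WT cells (-0.73 ± 0.29, adjusted p = 0.0682), while neither interaction test passed for it.

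BLM, the helicase that dissolves double junctions, fell, and the small partners of its complex moved in opposite directions. BLM had 0.348, 0.538 and 1.05 TPM with doxorubicin against 2.31, 2.9 and 4.7 TPM in control, without overlap (-1.36 ± 0.14, limma adjusted p = 8.83e-06). RMI1, which binds both BLM and the topoisomerase, fell (-0.54 ± 0.17, adjusted p = 0.0141, 1.84 against 3.22 TPM), with overlap and in no kind of cell alone. RMI2, which binds RMI1, rose, with 4.6 and 3.92 TPM in KO, 5.8 and 4.35 TPM in OE and 3.7 and 3.34 TPM in WT libraries with doxorubicin, against 2.03 and 1.21, 1.35 and 1.37, and 1.1 and 1.63 TPM in the matching control libraries (1.11 ± 0.15, adjusted p = 6.13e-05). The topoisomerase of the complex, TOP3A, did not pass (-0.05 ± 0.15, adjusted p = 0.796).

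**Figure D3:**
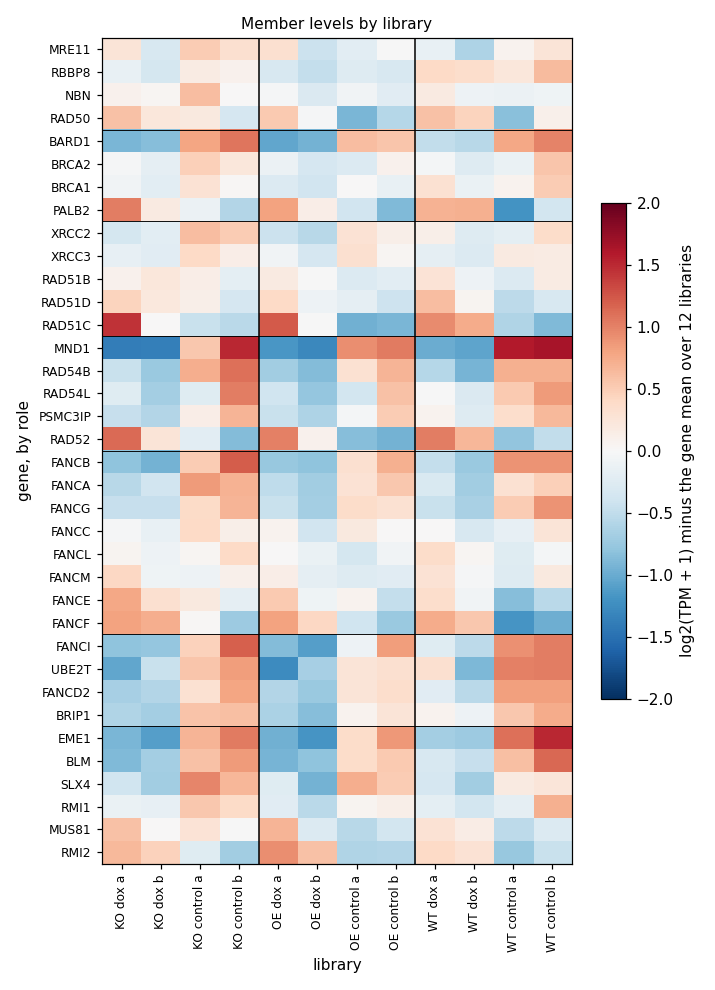
Level of each of the 36 genes (y axis, grouped by role) in each of the 12 libraries (x axis) as log2(TPM + 1) minus the gene's mean over all libraries, red above and blue below. MND1, EME1 and BARD1 are blue in all 6 doxorubicin libraries, RAD52 and FANCF red, and the first doxorubicin libraries of KO and OE are the reddest for RAD51C.

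Of 46 other genes of the same pathways, 43 were in the table and tested, of which 10 fell and 13 rose, with a median difference of 0.05. Over all genes 25.9% were lower and 32.2% higher, so both counts lay near the background. The 4 with the smallest adjusted p all fell: RPA3, a subunit of the single-strand binding complex (-1.4), FIGNL1, which removes the recombinase (-1.37), USP1, which takes ubiquitin off FANCD2 (-1.07), and RAD51AP1, which helps strand pairing (-1.13). RPA3 had 4.15 TPM on average with doxorubicin and 12.7 TPM in control (limma adjusted p = 8.34e-06), and USP1 had 5.95 and 13.5 TPM (adjusted p = 6.43e-05). The largest rise of that list, chosen after its values were seen, was in EME2, the alternative partner of MUS81, with 10.0 TPM with doxorubicin and 1.52 TPM in control (2.04, adjusted p = 0.000139). EME2 thus rose where EME1 fell. FAAP100, which joins FANCB and FANCL in the catalytic part of the core and was likewise chosen afterwards, rose to 9.21 TPM with doxorubicin, against 3.62 TPM in control (1.21, adjusted p = 0.00111). Overlap with neighbouring genes was tabulated only for the 36.

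Of 18 genes of the competing repair route, end joining, 5 fell and 4 rose, with a median of 0.05, against 25.9% lower and 32.2% higher over all genes, so the falls lay near the background. POLQ, the polymerase of the backup end joining route, fell (-1.13, limma adjusted p = 5.8e-05), as did MAD2L2, which shields ends from trimming (-0.76, adjusted p = 0.000359), and TP53BP1, which holds trimming back (-0.46, adjusted p = 0.00544). POLL, a polymerase that fills gaps, rose (0.96, adjusted p = 0.000966). Both counts were smaller without KO control b, where fewer genes were called over all genes as well.

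Most of the listed replication and G2/M genes fell with doxorubicin, against 25.9% lower and 32.2% higher over all genes. Of 40 replication genes 28 fell and 3 rose (median -0.71), with ORC1 of the origin complex at -1.94, the licensing factor CDC6 at -1.64, the nucleotide reductase subunit RRM2 at -2.86 and MCM10 at -1.23 (limma adjusted p of 2.74e-06 to 9.87e-06). Of 33 G2/M genes all 33 fell (median -2.84), among them the mitotic kinesins KIF20A (-3.96) and KIF2C (-3.42), and NUSAP1 (-3.4) and DLGAP5 (-3.63) of the spindle. The summed level of the G2/M genes was 42.6 to 106 TPM in doxorubicin libraries and 462 to 1150 TPM in control libraries, that of the replication genes 318 to 637 and 439 to 585 TPM (180 to 292 and 366 to 475 TPM without PCNA, the replication clamp picked out after its values were seen, which rose, with 247 TPM on average with doxorubicin and 90.6 TPM in control), and that of the 36 genes 127 to 214 and 160 to 236 TPM. The part of this shift in the results for the 36 was not tested. The 9 rises among the 36 and the falls of the 33 G2/M genes come from the same 12 libraries, so they are not independent observations.

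**Figure D4:**
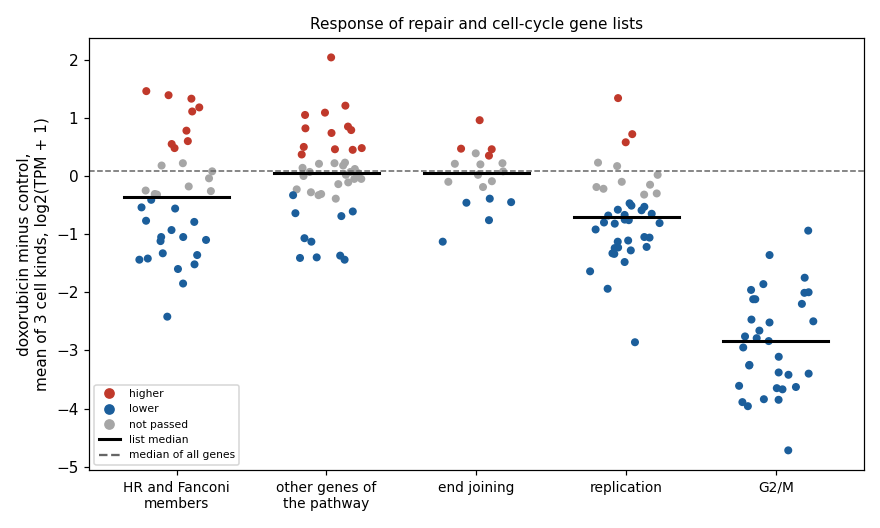
Difference between doxorubicin and control, averaged over the 3 kinds of cells on the log2(TPM + 1) scale (y axis), for each gene (points) of 5 lists (x axis), red where it rose, blue where it fell and grey where it did not pass; black bars are list medians and the dashed line is the median of all genes, 0.09. The 36 genes spread from -2.42 to 1.46 about a median of -0.36, the other genes of the pathway centre at 0.05, and every G2/M gene lies below 0.

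None of the 36 genes passed limma's test in any comparison of KO or OE with WT cells. With doxorubicin, KO cells differed from WT cells by -0.62 to 0.41 log2 units (smallest adjusted p = 0.908, median -0.11), and OE cells by -0.77 to 0.42 (smallest adjusted p = 0.415, median -0.19). In control medium the KO differences reached an adjusted p of 0.641 at lowest (median 0.12), and the OE differences 0.631 (median -0.24). The medians over all genes were 0.01 and -0.12 with doxorubicin and 0.20 and -0.04 in control medium for KO and OE. Of all genes, 0.295% and 0.315% were called with doxorubicin and 0.0918% and 0.118% in control medium for KO and OE. At an unadjusted p of 0.05, 2 and 2 of the 36 genes passed with doxorubicin and 2 and 3 in control medium, against 3.43% and 4.83%, and 7.14% and 5.03% of all genes. Since the KO and OE comparisons share the WT libraries, their likeness is not independent.

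RBBP8 and BRIP1 had the smallest unadjusted p of the 36 with doxorubicin in both KO and OE cells. RBBP8 had 10.8 and 9.3 TPM in KO, 9.48 and 8.44 TPM in OE and 16.2 and 15.6 TPM in WT libraries with doxorubicin. In control medium it had 13.6 and 12.9 TPM in KO, 9.98 and 9.49 TPM in OE and 14.3 and 19.3 TPM in WT libraries. The WT libraries were the highest in each medium. The OE difference was -0.77 ± 0.22 with doxorubicin (limma adjusted p = 0.415) and -0.72 ± 0.22 in control (adjusted p = 0.631), and the KO difference -0.62 ± 0.22 and -0.31 ± 0.22. BRIP1 with doxorubicin had 0.752 and 0.665 TPM in KO and 0.718 and 0.468 TPM in OE libraries, against 1.8 and 1.47 TPM in WT libraries, while its control libraries held 2.96 and 3.04, 1.78 and 2.18, and 2.84 and 3.45 TPM in KO, OE and WT cells. Its OE difference with doxorubicin was -0.73 ± 0.23 (adjusted p = 0.502), and it passed when the recovered reads were tested with limma's voom (-1.34 ± 0.26, adjusted p = 0.0417). In control medium the other genes at an unadjusted p under 0.05 were FANCF (0.72 ± 0.29) and FANCE (0.71 ± 0.31) in KO cells and EME1 (-0.69 ± 0.27) and MND1 (-0.65 ± 0.29) in OE cells. The G2/M genes lay lower beside them, by a median of -0.51 in KO and -0.62 in OE cells with doxorubicin and -0.74 and -0.81 in control medium, none of the 33 passing. The part of that shift was not tested.

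No difference in the drug response between KO or OE cells and WT cells passed for any of the 36 genes (smallest adjusted p of 1 in both interaction tests), and 0 and 0 of the 36 passed at an unadjusted p of 0.05, against 1.27% and 0.983% of all genes. After adjustment 0.00655% of all genes were called in each. The KO interaction ran from -0.69 to 0.26 log2 units with a median of -0.24, against -0.18 for all genes, and the OE interaction from -0.54 to 0.6 with a median of -0.02, against -0.07. A p above the threshold does not show that the responses were alike.

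**Figure D5:**
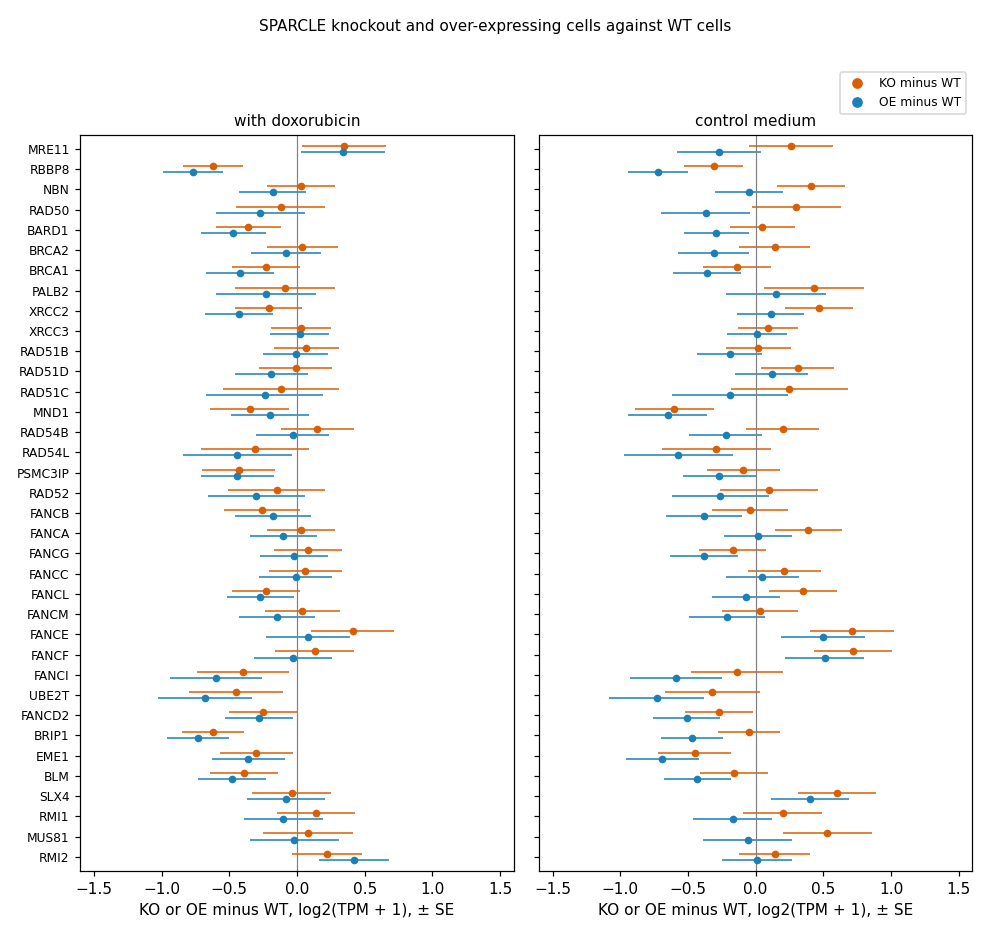
Difference of KO (orange) and OE (blue) cells from WT cells on the log2(TPM + 1) scale (x axis), with the limma standard error, for each of the 36 genes (y axis), with doxorubicin at the left and in control medium at the right. The points lie between -0.77 and 0.72, with RBBP8 and BRIP1 among the lowest at the left, and none passed the adjusted p of 0.05.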

How the data were processed

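The authors deposited log2 TPM values for 16676 genes in 12 libraries of total RNA made with a stranded kit, per the labels' protocols. Build hg38, featureCounts, edgeR 3.12.1 under R 3.3.3, and, among alignment tools, SAMtools 1.7 and HISAT2 2.0.4 are listed, per the submitters' processing notes, with no order. Annotation release, strand setting and filter are not given in the sources used here, so reads of overlapping genes may be shared. Of the 36 genes, 21 share exon bases with another gene of GENCODE v29, 10 by at least 10% of their own. These 10 were EME1, FANCA, FANCF, FANCL, MUS81, PSMC3IP, RAD50, RAD54B, RAD54L and XRCC3. Every column of the deposited table was mapped to a sample by its name, and 0 were left over.

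Whole reads were recovered from the deposited values to learn the depth. With GENCODE v29 exon lengths 15182 genes (91.7% of those matched) gave whole reads within 0.05 in each library, against 7 with shuffled lengths, and a further 1489 did with a length found by search. Of the 36 genes 28 used the GENCODE length and 8 the searched one.

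Values were tested as log2(TPM + 1), for the 15256 genes that reached 1 TPM in 2 or more libraries. A limma 3.58.1 model (R 4.3.3) with a mean for each of the 6 groups took in all 12 libraries and let the variance follow the level. Benjamini-Hochberg adjustment ran over all genes tested, two-sided, and an adjusted p under 0.05 was a call. Differences carry limma's standard error, and fold changes of low genes are understated on this scale. The effect averaged over kinds of cells is the mean of the KO, OE and WT differences. Recovery of reads and the model were checked on simulated data.

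The members and all gene lists were chosen with earlier results of these data known. Values per library follow a rule: the 8 largest falls and 8 largest rises, genes called alike in every kind of cell, and BRCA1, BRCA2, PALB2, FANCD2, FANCI, FANCA, RBBP8, MRE11, RAD50 and NBN, with the 4 smallest adjusted p of each other list. The other lists were further genes of the pathways, end joining, replication and G2/M genes and cell type markers. The remaining members are given by their call and difference.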

Additional observations from a re-analysis of the deposited data

How the results depend on the processing

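No call changed its direction in any of 1883 values of 120 results for single genes under the alternatives: 1745 kept their side of the threshold, 125 fell out of it and 13 came to pass it. FANCL, NBN and TOP3A, none of which passed, changed sign near 0 under some alternatives. The number of the 36 genes called over all kinds of cells, 27, became 17 with a threshold of 1 log2 unit added and 8 with a mean TPM of at least 5, where 12 genes remained to be tested. Those 8 were FANCI and UBE2T, lower, and PALB2, RAD51C, RAD52, FANCE, MUS81 and RAD50, higher. Of all 9210 genes tested with that filter, 2445 were lower and 2989 higher. With that filter the counts within KO, OE and WT cells, 18, 19 and 18, became 3, 5 and 6. Leaving out 1 library gave 25 to 27 over all kinds, 9 to 18 in KO, 5 to 17 in OE and 9 to 14 in WT cells. In OE against WT cells with doxorubicin, 1 gene (BRIP1) passed with voom on recovered reads in place of 0, and leaving out 1 library gave 0 in every comparison of genotypes and in both interactions. Median-ratio scaling and voom each gave 32 over all kinds, 23 lower and 9 higher; the median of all genes was 0.01 under both, against 0.09 as tested. The replicate block on the letters a and b gave 27 over all kinds, 19 in KO, 21 in OE and 21 in WT cells, and 0 in the genotype comparisons and interactions. The deviations of a from b correlated between groups at -0.389 to 0.81, with 0.81 between KO and OE doxorubicin and 0.5 between KO and OE control, but not above 0.1 in every pair, so the letters were not taken to pair the libraries. With the letters of the WT control libraries crossed, an alternative chosen after seeing the data, the block gave 0 for KO and for OE in control medium. No cause of these changes was tested beyond the smaller number of genes or libraries. With 1 log2 unit required, 10 of 43 other pathway genes, 1 of 18 end joining genes and 15 of 40 replication genes were called, in place of 23, 9 and 31. Of all genes, 10.6% were higher and 7.01% lower with that requirement. Depth did not allow KO cells to be told from WT cells by SPARCLE reads.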
